A study of Mus musculus with 15 samples.

Results

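Kruppel-like factors are transcription factors that bind GC-rich and CACCC sequences in DNA through zinc fingers at their carboxyl end, while their differing amino-terminal parts recruit activators or repressors. Klf2 and Klf4 are best known in endothelium, where blood flow induces them through the kinase ERK5 and MEF2 factors. Klf6 and Klf10 belong to the genes that are switched on quickly by growth factors, stress or TGF-beta, and Klf9 and Klf15 respond to glucocorticoids and to the circadian clock, with Klf15 driving amino acid and lipid use in muscle. The 10 genes described here are Klf2, Klf3, Klf4, Klf5, Klf6, Klf9, Klf10, Klf11, Klf13 and Klf15, taken by name from 55536 genes that included 17 Klf genes. All 10 were annotated as protein-coding and all passed the filter on low values in every comparison.

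The samples were 15 skeletal muscles of male mice aged 2 months, in 3 groups of 5. Controls were labelled wild type. The second group carried a Pdgfrb knockout and the third the D489V form of Pdgfrb, described by the submitters as constitutively active, both restricted to cells that express myogenin, a factor of differentiating muscle cells. Pdgfrb encodes a receptor for platelet-derived growth factor. RNA came from whole muscle, which also holds vessels, nerve, fat and connective tissue, and the muscle taken, the strain, the Cre driver's details and the litters are not given in the sources used here.

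The values are normalized read counts, and the summed count was 29815559 to 36489777 per sample. Fast fibre genes summed to 4713399 to 6392183 per sample, so each library held abundant muscle RNA. Pdgfrb itself was 1673 to 1848 in controls, 958 to 1628 in knockout and 820 to 1062 in D489V. It was thus read in every sample and was lowest on average in the group labelled as active. Its log2 difference from control was -0.45 in knockout (limma adjusted p 0.294) and -0.96 in D489V (limma adjusted p 0.00168). In knockout against D489V it was 0.51 (limma adjusted p 0.0258). Which exons the knockout removes is not given in the sources used here, so a count over the whole gene is a limited check of the label. Knockout replicate 3, labelled male, held 3165 normalized counts of Xist, the RNA of the inactive X chromosome, against at most 101 elsewhere. D489V replicate 3 held 50576 summed counts of Schwann cell markers against 12593 to 15360 in the other D489V samples. Lymphocyte markers summed to 6230 in control 5 and to 1890, 5244 and 1389 in knockout 3, 4 and 5, against 39 to 303 in the other 11 samples. Where leaving out knockout replicate 3 or D489V replicate 3 changed a count below of genes called in knockout against D489V, that value is given. The gene lists below were not refitted without knockout replicate 4 or 5 alone.

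The promoters of these genes are shown because Klf2, Klf4 and Klf6 were higher in D489V than in knockout muscle, while Klf15, shown beside them, passed in no comparison. Sequences are from RefSeq (GRCm38.p6), which matched 8 of the 10 genes. Klf5 and Klf10 were not among them. The stretches are Klf2 at chr8:72318812-72319032 on the plus strand, Klf4 at chr4:55532476-55532725 on the minus strand, Klf6 at chr13:5861239-5861481 on the plus strand and Klf15 at chr6:90462326-90462575 on the plus strand. Each starts 250 bases before the RefSeq start and stops before the first annotated transcribed base. Capitals mark the E-box CACGTG, the MEF2 site and the core of the cyclic AMP element, TGACG, each on either strand.
Klf2: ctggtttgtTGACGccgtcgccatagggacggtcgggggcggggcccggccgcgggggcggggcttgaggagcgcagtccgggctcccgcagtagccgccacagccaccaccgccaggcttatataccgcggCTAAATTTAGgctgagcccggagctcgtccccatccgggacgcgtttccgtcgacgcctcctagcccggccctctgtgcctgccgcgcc
Klf4: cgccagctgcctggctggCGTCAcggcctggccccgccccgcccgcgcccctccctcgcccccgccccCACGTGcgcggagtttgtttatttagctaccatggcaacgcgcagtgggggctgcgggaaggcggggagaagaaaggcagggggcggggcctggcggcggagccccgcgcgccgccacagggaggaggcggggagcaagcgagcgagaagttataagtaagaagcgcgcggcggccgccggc
Klf6: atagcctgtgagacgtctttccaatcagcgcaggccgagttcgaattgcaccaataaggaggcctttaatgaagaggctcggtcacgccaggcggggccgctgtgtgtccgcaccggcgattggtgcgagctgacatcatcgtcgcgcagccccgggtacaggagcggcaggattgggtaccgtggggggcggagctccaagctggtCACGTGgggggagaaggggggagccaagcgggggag
Klf15: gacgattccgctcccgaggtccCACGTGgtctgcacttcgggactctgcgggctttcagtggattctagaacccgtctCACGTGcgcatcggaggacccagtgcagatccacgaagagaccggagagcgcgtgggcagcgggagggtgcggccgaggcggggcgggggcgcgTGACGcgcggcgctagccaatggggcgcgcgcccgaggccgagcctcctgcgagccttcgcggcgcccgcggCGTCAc

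These promoters were rich in G and C, with 71.5% in the Klf2 stretch, 74% in Klf4, 64.2% in Klf6 and 72% in Klf15, against a median of 52.4% over 32851 promoters in the table. Only Klf2 of the 8 genes had a match to the MEF2 site, which 2.919% of all 250-base promoters held. The E-box was found once each in Klf4, Klf6 and Klf11 and at 2 places in Klf15, and 6.021% of all promoters held it. The core of the cyclic AMP element was found in Klf2, Klf4, Klf9, Klf13 and Klf15, and 17.765% of all promoters held it. The GC box GGGCGG was found in 7 of the 8 genes, and 32.742% of all promoters held it. Letters alone do not show that a factor binds there.

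Per exon length, Klf9 was the most abundant of the 10 genes in control muscle and Klf5 the least. Klf9 held 890 ± 163 normalized counts per kilobase of exon (SD, n = 5) and Klf5 held 30.03 ± 6.29. Between them came Klf2 at 523 ± 192, Klf6 at 291 ± 32.8, Klf4 at 263 ± 23 and Klf10 at 225 ± 39.2 per kilobase. Klf15 at 214 ± 52.1 and Klf13 at 185 ± 18 followed. Klf11 at 69.2 ± 10.3 and Klf3 at 51.4 ± 9.72 were lower. Neighbours in this order overlapped in their sample ranges, except that Klf13 lay above Klf11 and Klf3 above Klf5 in all controls. Length was the union of the exons of all annotated transcripts, 11243 bases for Klf3 and 4340 for Klf11. The order therefore depends on the annotation. By count, Klf3 averaged 578 and Klf11 300 in controls. In D489V, Klf2 reached 1077 ± 299 per kilobase and stood beside Klf9, at 1079 ± 138.

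**Figure D1:**
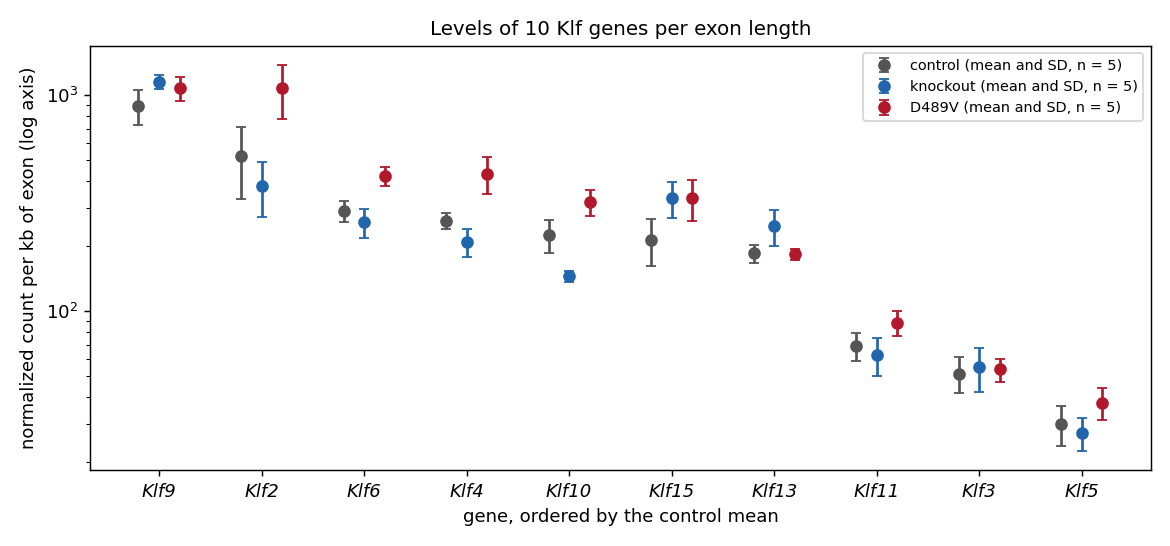
Normalized counts per kilobase of exon (log axis) of the 10 Klf genes in control, knockout and D489V muscle, as mean and SD over 5 samples each, ordered by the control mean. Klf9 leads in controls at 890 per kilobase, and Klf2 stands beside it in D489V at 1077.

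The largest differences lay between the mutant groups, where Klf2, Klf4, Klf6 and Klf10 were all higher in D489V than in knockout with no overlap of samples. By ratio of group means, D489V held 2.82 times as much Klf2, 2.07 times as much Klf4, 1.64 times as much Klf6 and 2.20 times as much Klf10. Klf11 was also higher in D489V and Klf13 was higher in knockout, with overlapping samples. In all, 6 of 10 members passed in this comparison, 5 lower and 1 higher in knockout, by limma with Benjamini-Hochberg adjustment over 15299 genes. Among all genes tested, 20.8% passed, 10.3% lower and 10.5% higher in knockout. Groups did not overlap for 4 members, all lower in knockout, against 13.9% of all genes in either direction, 6.7% lower and 7.22% higher in knockout. An unadjusted limma p under 0.05 was reached by 7 members and by 37.7% of all genes. The median log2 difference of the members was -0.48, against 0.0004 over all genes. Without knockout replicate 3, again 6 members passed, and 2273 genes did in place of 3181. Without D489V replicate 3, Klf13 no longer passed, leaving 5 members and 1989 genes. Leaving out knockout replicate 4 or 5 gave 5 and 4 members, with 2463 and 2141 genes. Without the 4 samples high in lymphocyte markers, a choice made after seeing the data, 2 knockout samples remained against 5 of D489V. Klf2, Klf4, Klf6 and Klf10 were then called, with 586 genes, and Klf11 and Klf13 were not (adjusted p 0.229 and 0.212 by limma).

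**Figure D2:**
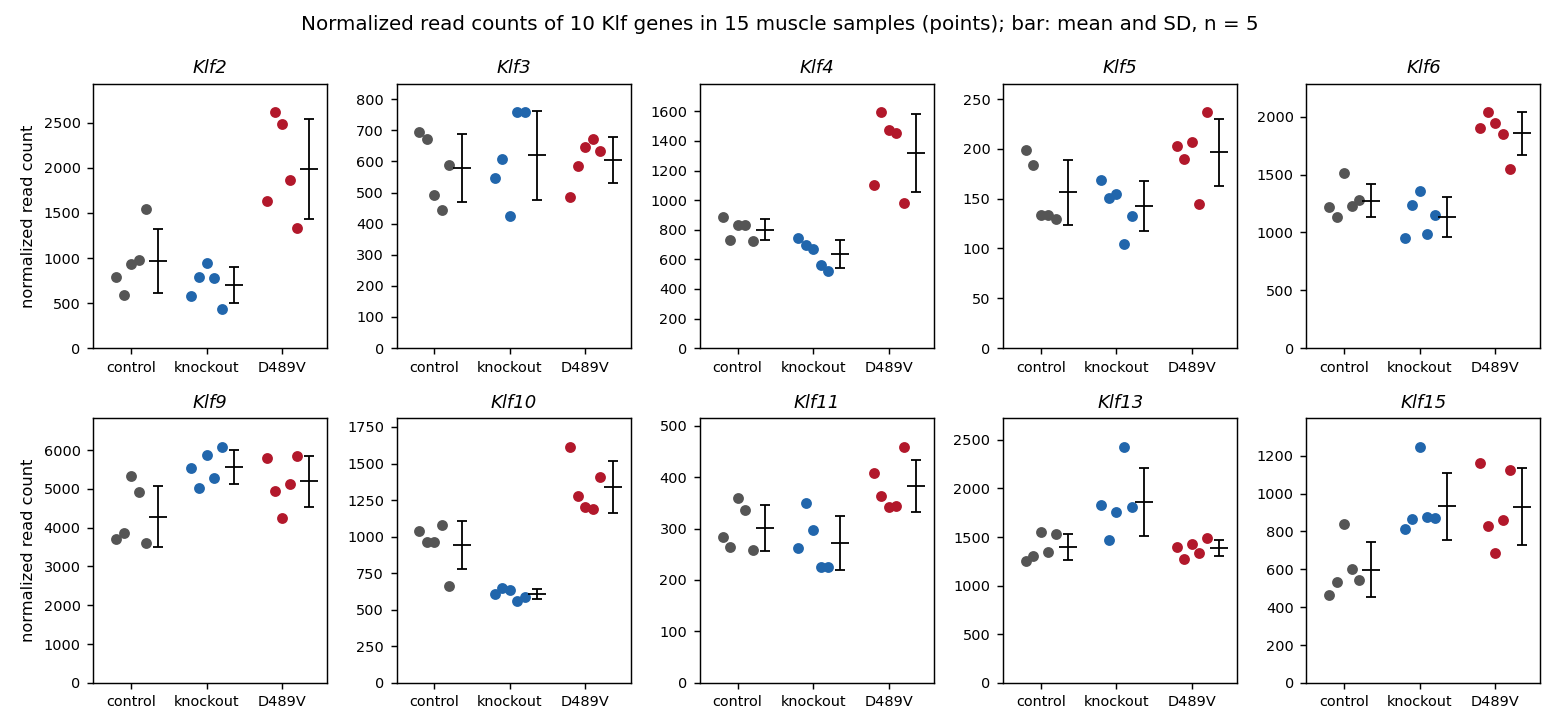
Normalized read counts of the 10 Klf genes, each panel with its own axis from 0, in 5 control, 5 knockout and 5 D489V samples (points, with mean and SD beside them). In Klf2, Klf4, Klf6 and Klf10 every D489V sample lies above every knockout sample, and in Klf10 every knockout sample, at 559 to 650, also lies below every control.

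Against the controls, neither mutant group had a member past the threshold. In knockout 0 of 10 members were called, where 0.00656% of 15234 genes were, and 5 members had an unadjusted limma p under 0.05, as did 15.1% of all genes. In D489V 0 of 10 were called, where 0.0587% of 15339 genes were (0.0261% higher and 0.0326% lower), and 6 members had an unadjusted limma p under 0.05, as did 9.43% of all genes. Groups did not overlap for 1 member in knockout (Klf10, lower) and for 3 in D489V (Klf4, Klf6 and Klf10, higher). Over all genes these shares were 2.24% and 2.16% in either direction, 1.25% lower and 0.991% higher in knockout, and 1.1% higher in D489V. Without either replicate 3 of the mutant groups, 0 members were called against control, nor were any without the 4 samples high in lymphocyte markers. The median log2 difference of the members was -0.14 in knockout and 0.43 in D489V, against 0.0106 and 0.0019 over all genes. Both comparisons share the 5 control samples.

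**Figure D3:**
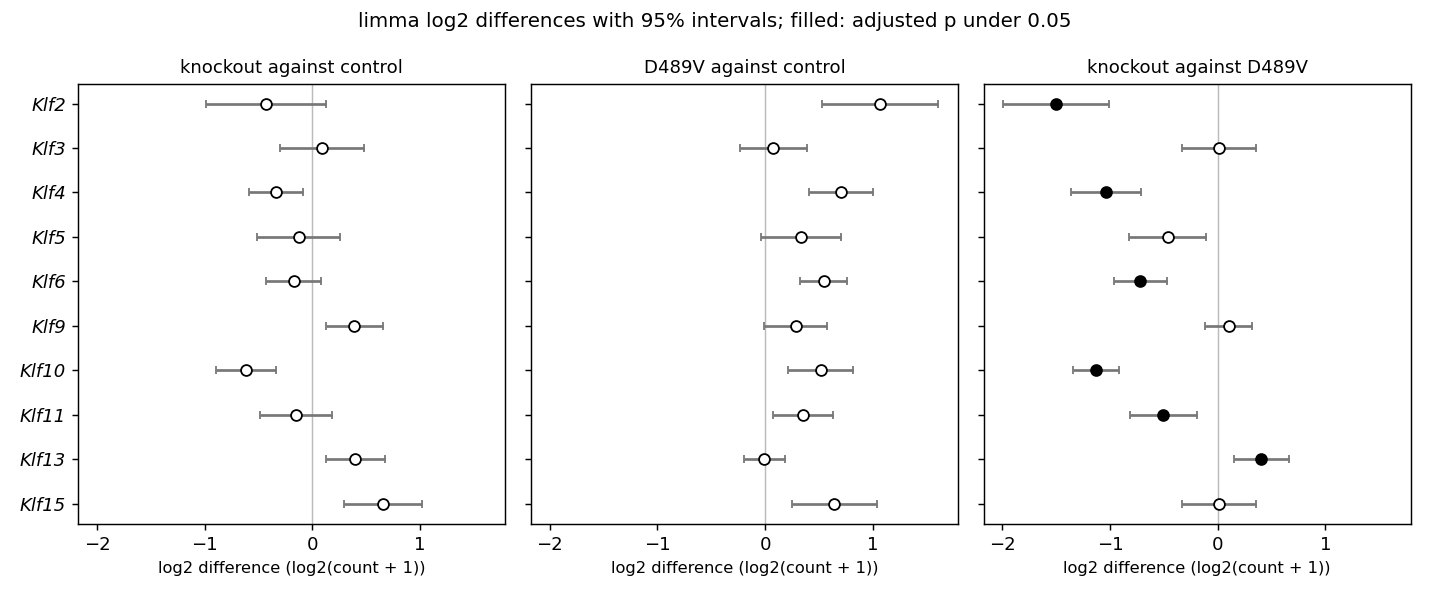
Log2 differences (log2 of count plus 1) of the 10 Klf genes in the 3 comparisons, with 95% intervals from limma, filled where the adjusted p is under 0.05. Filled points occur only in knockout against D489V, for Klf2, Klf4, Klf6, Klf10, Klf11 and Klf13.

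Klf2 (ENSMUSG00000055148, chromosome 8, 72319033 to 72321656, plus strand), the flow-induced endothelial factor, had the largest ratio of group means between D489V and knockout. Controls 1 to 5 held 786, 593, 929, 980 and 1540 normalized counts of it. In knockout they were 582, 786, 946, 776 and 434, and in D489V 1636, 2621, 2491, 1864 and 1337. All knockout samples lay below all D489V samples, and control 5 alone reached above a D489V sample, replicate 5. The log2 difference was -1.50 in knockout against D489V (SE 0.226, adjusted p 0.00307. by limma) It was 1.07 in D489V against control with a limma adjusted p of 0.151 and -0.43 in knockout against control with a limma adjusted p of 0.41. Controls varied most in this gene, with a coefficient of variation of 36.7%.

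Klf4 (ENSMUSG00000003032, chromosome 4, 55527143 to 55532466, minus strand) shares endothelial targets with Klf2 and also acts in smooth muscle and in stem cells. Its counts were 885, 732, 829, 834 and 724 in controls and 744, 698, 669, 563 and 518 in knockout. In D489V they were 1104, 1596, 1473, 1453 and 983, above every sample of the other groups. D489V replicates 1 and 5 were the lowest of their group in both Klf2 and Klf4. The log2 difference was -1.04 in knockout against D489V (SE 0.149, adjusted p 0.00247. by limma) Against control it was 0.70 in D489V (limma adjusted p 0.0841, exact permutation p 0.00794) and -0.34 in knockout (limma adjusted p 0.305, exact permutation p 0.0238). The smallest p that the exact two-sided test of 5 against 5 samples can give is 0.00794.

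Klf6 (ENSMUSG00000000078, chromosome 13, 5861482 to 5870394, plus strand), an early response gene of injured tissue, had counts of 1220, 1135, 1516, 1229 and 1278 in controls. Knockout samples held 949, 1237, 1361, 982 and 1150. D489V samples held 1905, 2041, 1948, 1848 and 1551, all above the highest control. The log2 difference was -0.72 in knockout against D489V (SE 0.114, adjusted p 0.00375. by limma) In D489V against control it was 0.54, with a limma adjusted p of 0.0724 and an exact permutation p of 0.00794. Knockout and control overlapped, with a log2 difference of -0.17 and a limma adjusted p of 0.463.

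Klf10 (ENSMUSG00000037465, chromosome 15, 38291463 to 38300706, minus strand), a repressor first known as a TGF-beta inducible early gene, was the member that parted all 3 groups. Controls held 1042, 962, 961, 1080 and 664. Knockout samples held 607, 650, 634, 559 and 587, and D489V samples 1615, 1275, 1201, 1188 and 1406. No sample of any group overlapped with another group, although control 5, at 664, came close to the knockout samples. Knockout against D489V gave a log2 difference of -1.13 (SE 0.0979, adjusted p 1.81e-04 by limma), the fifth smallest p of all genes tested. Against control the differences were -0.61 in knockout (limma adjusted p 0.227) and 0.52 in D489V (limma adjusted p 0.236), each with an exact permutation p of 0.00794. Without control replicate 5, knockout against control gave -0.73 with a limma adjusted p of 0.0202, the only member called in that comparison in any of the fits without 1 sample. Control 5 is also the control highest in lymphocyte markers, and their part in its Klf10 and Klf2 values was not tested.

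Klf11 (ENSMUSG00000020653, chromosome 12, 24651274 to 24662789, plus strand) is the closest relative of Klf10 and another TGF-beta inducible repressor. Its counts were 259 to 359 in controls, 225 to 350 in knockout and 342 to 459 in D489V. Only knockout replicate 2, at 350, reached into the D489V range. The log2 difference was -0.50 in knockout against D489V with a limma adjusted p of 0.0288, and 14 of 21 alternative fits kept it past the threshold. Against control it was 0.35 in D489V and -0.15 in knockout, with limma adjusted p of 0.403 and 0.618.

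Klf5 (ENSMUSG00000005148, chromosome 14, 99298691 to 99315036, plus strand), a factor of proliferating smooth muscle and of fat cell differentiation, was the least abundant member. Its counts were 130 to 199 in controls, 104 to 169 in knockout and 145 to 237 in D489V. In knockout against D489V its log2 difference was -0.46, with a 95% interval of -0.82 to -0.10 and a limma adjusted p of 0.0638.

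Klf9 and Klf15, the glucocorticoid and clock responsive members, were higher on average in both mutant groups than in controls, with no call. Klf9 (ENSMUSG00000033863, chromosome 19, 23141226 to 23168134, plus strand) held 3718, 3863, 5339, 4908 and 3610 in controls. It held 5021 to 6087 in knockout and 4252 to 5855 in D489V. Control 3 lay within the ranges of both mutant groups and control 4 within that of D489V. The log2 difference from control was 0.39 in knockout (limma adjusted p 0.301) and 0.29 in D489V (limma adjusted p 0.54).

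Klf15 (ENSMUSG00000030087, chromosome 6, 90462576 to 90475238, plus strand) held 463, 533, 842, 603 and 546 in controls, where replicate 3 was the highest for Klf9 as well. In knockout its counts were 812, 867, 1248, 874 and 869, and in D489V 1160, 828, 685, 861 and 1123. Only control 3 overlapped with either mutant group. The log2 difference from control was 0.66 in knockout (limma adjusted p 0.249, exact permutation p 0.0159) and 0.64 in D489V (limma adjusted p 0.254, exact permutation p 0.0238). Between the mutant groups it was 0.01, with a 95% interval of -0.33 to 0.36, and for Klf9 it was 0.10, with an interval of -0.12 to 0.32.

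Klf13 (ENSMUSG00000052040, chromosome 7, 63886351 to 63938915, minus strand), a relative of Klf9, ran against the other called members. Its counts were 1254 to 1551 in controls, 1826, 1472, 1759, 2429 and 1807 in knockout, and 1275 to 1490 in D489V. Knockout replicate 2, at 1472, was the only knockout sample within the D489V range. The log2 difference was 0.41 in knockout against D489V (limma adjusted p 0.0303), and 15 of 21 alternative fits kept it past the threshold. Against control it was 0.40 in knockout (limma adjusted p 0.301) and -0.01 in D489V (limma adjusted p 0.988). The antisense transcript Gm27252 overlaps Klf13 and averaged 47.6 normalized counts, and use of strand in counting is not given in the sources used here.

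Klf3 (ENSMUSG00000029178, chromosome 5, 64803388 to 64832901, plus strand), a repressor that works with the corepressor CtBP, had log2 differences between 0.01 and 0.09 in the 3 comparisons. Its counts were 444 to 694 in controls, 425 to 759 in knockout and 487 to 672 in D489V. The 95% interval of knockout against D489V was -0.33 to 0.35. Transcripts Gm20033 and C230096K16Rik, which overlap Klf3, averaged 27.53 and 31.87 normalized counts.

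The D489V samples divided differently by gene. Replicates 1 and 5, the lowest of their group in Klf2 and Klf4, were the highest in Klf10 (1615 and 1406), Klf11 (407 and 459), Klf9 (5797 and 5855) and Klf15 (1160 and 1123). Among controls, replicate 5 was the highest in Klf2, at 1540, and the lowest in Klf10, at 664. Within D489V, the samples highest in Klf2 were thus not those highest in Klf10.

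**Figure D4:**
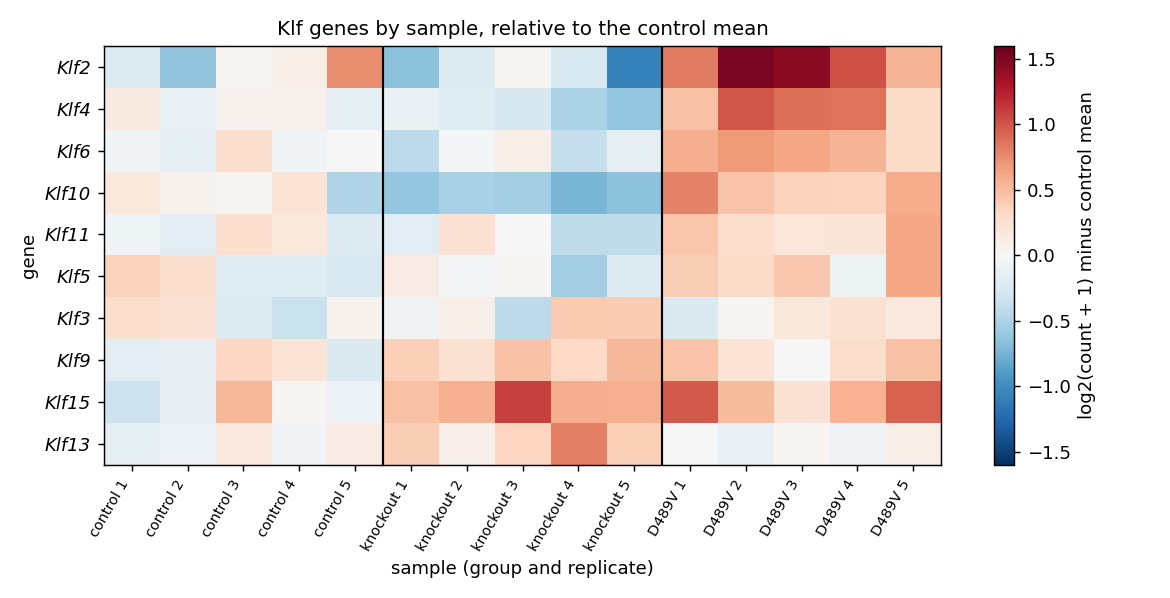
Log2(count + 1) of the 10 Klf genes in each of the 15 samples minus the mean of the 5 controls (colour, red above and blue below that mean). Klf2, Klf4, Klf6, Klf10, Klf11 and Klf15 are red in all 5 D489V columns, and Klf9, Klf13 and Klf15 are red in all 5 knockout columns. Klf9 also lies above the control mean in all 5 D489V columns, though barely in replicate 3.

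Of the other 7 Klf genes, Klf7 was the most abundant by count, at 447 to 835 over all samples, and Klf17 was listed at 0 in all 15. Of 16 other Klf and Sp genes, 8 were tested in knockout against D489V, where 20.8% of all genes were called, and 1 of the 8 was called. This was Klf12, a repressor, which was higher in knockout at 127 ± 19.1 against 82.4 ± 21.9 (SD, n = 5), with a log2 difference of 0.64 and a limma adjusted p of 0.0341. Without knockout replicate 3 or without D489V replicate 3 it was not called. In both comparisons with control none of these genes was called.

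The nearest patterns outside the family were sought among protein-coding genes with a mean of 50 or more, by Pearson correlation of log2(count + 1) over all 15 samples. These correlations take in the group differences, and the samples share 1 normalization, so they describe likeness only. Plk3, a stress-induced kinase, was nearest to Klf2, with r = 0.916 and Spearman's rho = 0.926. Its counts were 83 to 147 in controls, 32 to 65 in knockout and 164 to 251 in D489V, so no groups overlapped. Klf4 was nearest to Usb1, an RNA exonuclease gene, and Nr4a2, an early response nuclear receptor, with r = 0.951 and 0.949 (rho = 0.928 and 0.921). Klf6 was nearest to Errfi1, a feedback inhibitor of the EGF receptor, with r = 0.912 (rho = 0.875), and Klf10 to Amotl2, a junction protein, with r = 0.906 (rho = 0.925). With group means removed, r was 0.898 for Klf2 with Plk3 and 0.704 and 0.788 for Klf4 with Usb1 and Nr4a2. It was then 0.57 for Klf6 with Errfi1 and 0.304 for Klf10 with Amotl2. Klf9 and Klf15 shared Gdpd3 as their nearest gene, with r = 0.912 and 0.86 and Spearman's rho = 0.65 and 0.779. Of the 3 genes nearest to Klf9 by r, Tspan8 had the highest rho, at 0.921. Klf9 and Klf15 themselves had r = 0.891. The third nearest to Klf15 was Glul, the glutamine synthetase gene, which glucocorticoids induce, with r = 0.846 (rho = 0.814). Gdpd3 counts ran from 43 to 447 in controls, with replicates 1, 2 and 5 at 61, 55 and 43.

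Immediate early genes were lower in knockout than in D489V alongside Klf2, Klf4, Klf6 and Klf10. Of 22 tested, 17 were called lower and 1 higher in knockout, where 10.3% and 10.5% of all genes were. The median log2 difference of the 22 was -0.71. With upper-quartile, TMM or quantile scaling, 15, 14 and 14 were called lower, 15 were without knockout replicate 3, and 13 were without D489V replicate 3. Fos fell from 1710 ± 441 in D489V to 497 ± 144 in knockout (SD, n = 5), a log2 difference of -1.79 with a limma adjusted p of 0.00155. Junb, Zfp36 and Egr1 had differences of -1.31, -1.18 and -1.65. Among controls, Fos, Junb, Zfp36 and Egr1 ran in another way than Klf2, though not every gene of the list did. Nr4a3 was 66 and 51 in controls 1 and 2 against 78 to 243 in controls 3 to 5. Fos was 1504 and 2109 in controls 1 and 2 against 423 to 683 in controls 3 to 5, while Klf2 was 786 and 593 against 929 to 1540.

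Against control, 0 of 22 immediate early genes were called in either mutant group. In D489V 21 of 22 had positive differences, with a median of 0.49, and Dusp1 and Mafk had the smallest p, with log2 differences of 0.52 and 0.50 (limma adjusted p 0.0947 and 0.168). In knockout 15 of 22 had negative differences, with a median of -0.18. Nr4a3 ran the other way, with a log2 difference of 1.92 and a limma adjusted p of 0.294.

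Endothelial markers, of a cell type known for Klf2 and Klf4, were lower in knockout than in D489V. In bulk muscle, fewer cells of a type and less RNA per cell cannot be told apart. In knockout against D489V, 20.8% of all genes were called and 10.3% were called lower. All 11 markers were called lower in knockout than in D489V, and 10 were without knockout replicate 3 or without D489V replicate 3. Their summed count was 12043 to 18245 in knockout, below 19128 to 28786 in controls and 21312 to 26187 in D489V, although 0 of 11 markers were called in knockout against control, where all 11 had negative differences. The tight junction gene Cldn5 was lowest relative to D489V, at 512 ± 198 against 1566 ± 387 (SD, n = 5), a log2 difference of -1.66 with a limma adjusted p of 0.00243. Between D489V and control the endothelial sums overlapped, and 0 of 11 markers were called, with a median log2 difference of 0.09 where Klf2 had 1.07 and Klf4 0.70. The part of the endothelial markers in the knockout values of Klf2 and Klf4 was not tested.

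**Figure D5:**
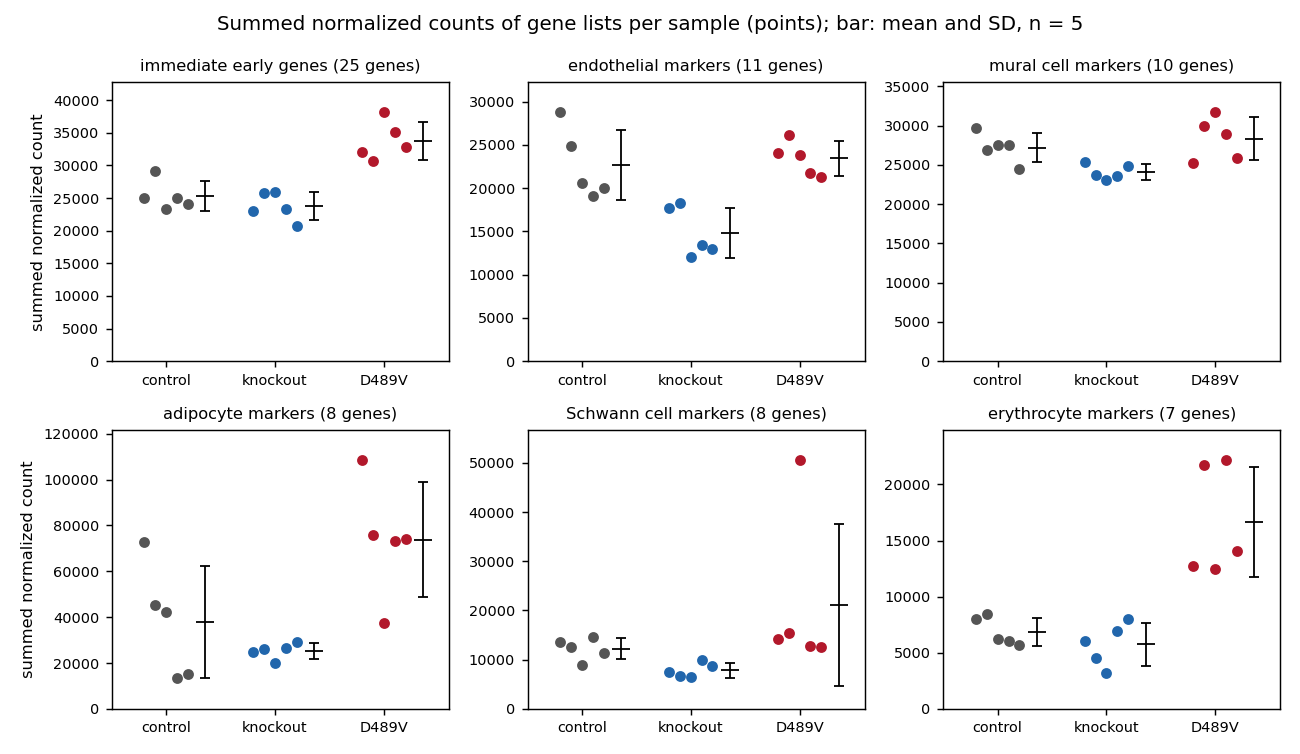
Summed normalized counts of 6 gene lists per sample (points, each panel from 0), with mean and SD over 5 samples beside them. Endothelial sums in knockout, at 12043 to 18245, lie below those of the other groups, and immediate early and erythrocyte sums in D489V lie above all other samples.

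Other tissue markers also differed between the mutant groups, where 20.8% of all genes were called and 10.3% were called lower in knockout. Adipocyte sums were 20026 to 29234 in knockout, 37606 to 108567 in D489V and 13361 to 72950 in controls, and 6 of 8 markers were called lower in knockout than in D489V. Schwann cell sums were 6382 to 10008 in knockout and 12593 to 50576 in D489V, and the controls, at 8995 to 14530, overlapped with both. D489V replicate 3 gave the 50576, and the other D489V samples reached 15360 at most. Of the 8 Schwann cell markers, 8 were called lower in knockout than in D489V, and 4 without knockout replicate 3. Erythrocyte sums were 3175 to 8038 in knockout, 12467 to 22177 in D489V and 5684 to 8422 in controls, with 5 of 5 tested called lower in knockout. Of the 10 mural cell markers, 4 were called lower and 1 higher in knockout, and without either replicate 3 these were 4 and 0. Counts for adipocyte and erythrocyte markers were the same without either replicate 3. None of 9 macrophage markers, 6 tested lymphocyte markers, 9 fast fibre markers or 8 slow fibre markers was called, and slow fibre sums ran from 7387 to 204313. Without knockout replicate 3, 1 macrophage marker was called higher in knockout than in D489V. The part of these markers in the Klf differences was not tested.

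Of 13 tested genes that Klf2 and Klf4 are known to act on in endothelium, 3 were called lower in knockout than in D489V and none higher. This share is near the 20.8% of all genes called in either direction, and 10.3% of all genes were called lower. The 3 genes were Nos3, the endothelial nitric oxide synthase, at 555 ± 79.5 against 784 ± 108 (SD, n = 5), the receptor gene Tek and its ligand gene Angpt2. Their log2 differences were -0.50, -0.54 and -0.83, with limma adjusted p of 0.0167, 0.00706 and 0.00459. Nos3 and Tek are induced by flow and Angpt2 is repressed by it, and Tek is also in the endothelial marker list. In D489V against control 0 of 13 were called, and the median log2 difference was 0.12.

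Of 13 genes upstream of Klf2 and Klf4, the MEF2 factors Mef2a and Mef2c were called, both higher in knockout than in D489V, where 20.8% of all genes were called. Their log2 differences were 0.46 and 0.34, and the limma adjusted p were 0.0316 and 0.0289. Without knockout replicate 3 or without D489V replicate 3 neither was called. Of 14 partners of Klf proteins, 3 were called higher in knockout, namely Rbbp7, Wwp1 and Ctbp1, and Sin3b was called lower (20.8% of all genes were called), with a log2 difference of -0.37. Without knockout replicate 3 the count higher was 2, and without D489V replicate 3 it was 1. Ctbp1, the corepressor that Klf3 binds, differed by 0.32 with a limma adjusted p of 0.0248.

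Genes that respond to glucocorticoids, as Klf9 and Klf15 do, were called in both directions (20.8% of all genes were called). Of 18 glucocorticoid response genes, 5 were called lower and 2 higher in knockout than in D489V, and without knockout replicate 3 these were 5 and 0. Without D489V replicate 3 they were 4 and 0. Errfi1, Mt1, Cebpd and Cdkn1a were lower in knockout, with log2 differences of -0.96, -1.34, -0.98 and -0.96. Against control none was called, while 14 of 18 had positive differences in knockout and 15 of 18 in D489V, with medians of 0.39 and 0.50. The smallest p in knockout were those of Foxo3 and Tsc22d3, with log2 differences of 0.56 and 0.51 (limma adjusted p 0.273 and 0.302). In D489V they were those of Mt2 and Errfi1, with 1.45 and 0.80 (both limma adjusted p 0.0638).

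Of 18 amino acid and lipid genes tied to Klf15, 2 were called higher in knockout than in D489V and 2 lower, a share near the 20.8% of all genes, and without D489V replicate 3 these were 1 and 3. Gpt2, an alanine aminotransferase, and Dld, a dehydrogenase subunit, were higher by 0.59 and 0.66 on the log2 scale. Slc27a1, a fatty acid transporter, and Pnpla2, a triglyceride lipase, differed by -1.04 and -0.77. Bcat2, which starts branched-chain amino acid breakdown and is a known Klf15 target, was 2340 ± 390 in D489V and 1704 ± 121 in control (SD, n = 5). In knockout Bcat2 was 1876 ± 235. Its log2 difference in D489V against control was 0.44 with a limma adjusted p of 0.206. Slc27a1 had a smaller p there, with a log2 difference of 0.74 and a limma adjusted p of 0.106.

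Circadian clock genes include known regulators of Klf9, Klf10 and Klf15. Of 19 tested, 5 were called higher and 1 lower in knockout than in D489V, where 20.8% of all genes were called, with a median log2 difference of 0.06, and without knockout replicate 3 these were 3 and 0. Without D489V replicate 3 they were 2 and 1. Nfil3, a repressor of clock outputs, was 1025 ± 170 in knockout against 586 ± 102 in D489V (SD, n = 5), and Tef was 7333 ± 592 against 5492 ± 419. Npas2 was called lower, with a log2 difference of -1.24. Against control none was called in knockout, where Nfil3 and Per2 had the smallest p, with log2 differences of 0.98 and 1.76 (limma adjusted p 0.15 and 0.227). The time of day of collection is not given in the sources used here.

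Of 17 TGF-beta response genes, 2 were called lower and 1 higher in knockout than in D489V, where 20.8% of all genes were called. Id1, a target of BMP signals, was 482 ± 26.3 in knockout, 657 ± 99.8 in control and 1132 ± 243 in D489V (SD, n = 5), an order of groups like that of Klf10. Id1 and Id3 differed by -1.20 and -0.87 in knockout against D489V, with limma adjusted p of 6.21e-04 and 0.00247, and Smad3 by 0.44 with 0.036. Without D489V replicate 3 or with quantile normalization no gene of this list was called higher. Of 10 tested regulators of fat cell differentiation, 7 were called lower in knockout than in D489V, and 6 without knockout replicate 3. This list mixes factors that promote the process with Gata2 and Dlk1, which restrain it. Pparg had the smallest p, at 207 ± 54 against 659 ± 213 (SD, n = 5), with a limma adjusted p of 0.00512. Adipocyte markers were also lower in knockout than in D489V, as given above.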

How the data were processed

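Poly(A) RNA of 15 muscle samples was sequenced from directional libraries, per the labels' protocols. The submitters' processing notes name GRCm38, Trim Galore 0.6.0, STAR 2.7.0e and DESeq2 1.26.0, without their roles. The 2 deposited tables hold whole-number normalized counts, treated as a score; by their names and headers the authors had scaled them, and the scaling method is not given in the sources used here. The tables share 5 identical control columns and were joined by gene identifier. In 8 of 15 samples every whole number from 1 to 100 occurred, so several read counts can share a value, and tests on reads were not run. Sequencing depth is therefore not known here. The summed normalized counts come after scaling between samples and do not measure it.

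Groups came from the labels, which do not say that replicates are separate animals, so p-values measure the spread between these samples, which may be technical. Genes reaching 10 in 5 samples of the 10 compared were fitted with limma 3.58.1 in R 4.3.3 (trend, two-sided) on log2(value + 1), which understates changes of low genes. Calls are Benjamini-Hochberg adjusted p under 0.05 over all genes tested. Single genes also had exact permutation tests. In simulated data with 200 changed genes, 75% of genes changed by 1 (log2) were recovered for knockout against control (15013 genes). The shares were 73% for D489V against control (15133) and 91% for knockout against D489V (15084). The adjusted p depends on how many genes change, and the real fits against control called 1 gene in knockout and 9 in D489V. In D489V against control, Klf2 at a log2 difference of 1.07 had a limma adjusted p of 0.151. The simulated shares therefore do not show how many real changes of this size were recovered against control. Names, coordinates and exon lengths are from GENCODE M21, which matched all 55536 identifiers. Python 3.11.15, pandas 2.3.3 and matplotlib 3.10.9 were used.

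The members and gene lists were chosen with earlier results of these data known. The rule names all members, Pdgfrb, up to 4 called genes per list and comparison (or the 2 of smallest p), and the 3 nearest patterns per member. Klf7, Klf17, Xist and the single-sample values of Fos, Junb, Zfp36, Egr1, Nr4a3 and Gdpd3 were picked after their values were seen. Alternatives changed the pseudocount, filter, scaling, variance model, weights and samples.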

Additional observations from a re-analysis of the deposited data

Results flagged for a closer look

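In each group of 5 samples, the gap of the highest or lowest log2 value to its nearest neighbour was taken as far when it exceeded 0.71 of the group's range. Of 30 groups of values (10 genes in 3 groups), 2 held such a sample, against 1.5 by chance. Klf10 was far in control replicate 5, the lowest of its group at 664 normalized counts against 961 to 1080 (gap 0.76 of the range). Klf15 was far in knockout replicate 3, the highest of its group at 1248 against 812 to 874 (gap 0.829).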

How the results depend on the processing

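Klf2, Klf4, Klf6 and Klf10 stayed past the threshold in all 21 fits with 1 changed setting of knockout against D489V, with log2 differences of -1.63 to -1.34, -1.14 to -0.96, -0.80 to -0.66 and -1.18 to -1.06. In that comparison 5 members passed with quantile normalization and 7 with array weights, and 4 to 7 without 1 sample, with 1398 to 3686 genes. Lowest were the fits without D489V replicate 1, 2 or 3, at 1398, 1526 and 1989 genes. In knockout against control 3 genes passed with quantile normalization and 16 with all 15 samples in one fit. Without 1 sample these were 1 to 7 genes and 0 to 1 members, with 7 genes without knockout replicate 2, 4 and 1 member without control replicate 5, and 2 each without control replicate 3 or 4 or knockout replicate 3. For D489V and control, pseudocount 5 gave 19 genes, and 4 passed with a mean of 50 or more, 18 with upper-quartile rescaling (61.1% higher, against 44.4% of 9), 16 with quantile normalization, 21 with robust eBayes, 86 with array weights (with 3 members, Klf2, Klf4 and Klf6) and 1 with all 15 samples in one fit. Without 1 sample these were 2 to 26 genes and 0 members, with 26 without D489V replicate 3, 15 without control replicate 3, and 2 to 4 without control replicate 1, 2 or 4 or any of the other D489V samples. Of 630 values in such fits for single members, 594 kept direction and side of the threshold, 6 came past it, 13 lost it and 17 changed sign.

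These 17 changes of sign were all in values that passed no threshold. Without 1 sample, Klf3 ran from -0.00198 to 0.215 in knockout against control, from -0.0116 to 0.154 in D489V against control and from -0.0719 to 0.137 in knockout against D489V, where -0.0715, -0.0662 and -0.00022 were the other negative values. Klf13 in D489V against control ran from -0.0436 to 0.0331 without 1 sample (also 0.0274, 0.0231 and 0.0057) and was 0.0108 with upper-quartile rescaling. In knockout against D489V, quantile normalization gave -0.00758 for Klf3 and -0.0253 for Klf15, and Klf15 ran from -0.0952 to 0.0998 without 1 sample. The cause was not tested.

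Without the 4 samples high in lymphocyte markers (control 5 and knockout 3, 4 and 5, chosen after seeing the data), 3 genes passed in knockout against control, 6 in D489V against control and 586 in knockout against D489V, with 0, 0 and 4 members. Signs turned for Klf13 in D489V against control (0.0274), and in knockout against D489V for Klf3 (-0.0611) and Klf15 (-0.123). This fit rests on 2 knockout samples and fewer genes tested.

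A fit with a replicate block gave 1, 7 and 2208 genes and 0, 0 and 5 members in knockout against control, D489V against control, then knockout against D489V, where Klf11 was lost (adjusted p 0.0619 by limma). Deviations of samples sharing a number correlated between -0.21 and 0.24, between -0.4 and 0.39, then between -0.11 and 0.1. The replicate numbers are therefore not read as pairs.

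Depth limits low genes most, and since the values cannot be turned back into reads, no counting interval is given. With 5 samples a group, a single library moved several counts by over 1.5 times.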
